A study of Mus musculus with 8 samples.

Results

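The clustered protocadherins were followed in mouse hippocampus with and without Ctcf in excitatory neurons. Members were the non-control array probes whose gene name is that of an isoform of the alpha, beta or gamma cluster (Pcdha, Pcdhac, Pcdhb, Pcdhga, Pcdhgb or Pcdhgc with its number). This rule took 38 probes of 35 genes, out of 39429 probes on the array: 9 probes of 7 alpha genes, 22 probes of 22 beta genes and 7 probes of 6 gamma genes. RefSeq lists 58 genes in the 3 clusters, 14 alpha, 22 beta and 22 gamma, all on mouse chromosome 18, so the array carried probes for every beta gene, 7 of 14 alpha genes and 6 of 22 gamma genes. All 38 member probes matched a RefSeq gene of the same name by accession.

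The tissue was whole hippocampus from C57BL/6 adults (3 to 6 months old) of 2 genotypes. Control mice (WT) were Ctcf loxP/loxP and Camk2a-Cre negative, and conditional knockout mice (CKO) were Ctcf loxP/loxP with Camk2a-Cre. Both genotypes carried the floxed alleles and only CKO mice carried Cre, so effects of Cre itself and of Ctcf loss cannot be told apart. The Camk2a promoter limits recombination to excitatory forebrain neurons, while RNA came from all cells of the tissue, glia and interneurons included. Each sample was a pool of 3 mice that had been through behavioural tests, with 3 pools per genotype. Pool 1 held 2 females and 1 male of 19 to 23 weeks, pool 2 held 3 females of 18 to 19 weeks and pool 3 held 3 males of 15 to 17 weeks, with the same makeup in both genotypes. Pool 1 of both genotypes had 2 arrays and the other pools 1 each, which gave 8 arrays on 2 slides. Slide 1 carried the first pool 1 arrays and the pool 2 arrays, and slide 2 carried the second pool 1 arrays and the pool 3 arrays.

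Clustered protocadherins are cadherin-like adhesion proteins of neurons. Each neuron uses a small set of isoforms, and like sets on 2 membranes recognise each other, which lets a neuron tell its own branches from those of its neighbours. The clusters lie in tandem, alpha, then beta, then gamma. In the alpha and gamma clusters each isoform has its own promoter and its own first exon, which encodes the extracellular and membrane parts and is spliced to exons shared by the whole cluster, whereas a beta gene is a single exon. CTCF and cohesin bind at most isoform promoters and at enhancers of the clusters, and loops between them are known to favour the choice of a promoter. A few isoforms, among them the C-type Pcdhac2 and Pcdhgc5, lack the conserved promoter element where CTCF binds and are used more evenly by neurons.

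Ctcf came first as the check of the labels. Its signal was 0.83, 1.12 and 1.04 in WT pools 1 to 3 and 0.18, 0.16 and 0.05 in CKO pools, as log2 of the signal relative to the array's 75th percentile (the scale of every level given here). The CKO pools all lay under the WT range, by -0.87 (SE 0.13), with the WT level 1.82-fold the CKO level. The adjusted p in limma over 23601 probes was 0.158, and 0.034 in a fit with pool number as block. The place of this probe relative to the deleted exons was not checked. The arrays had median signals of 271.9 to 600.5, with 59.2% to 66.0% of spots well above background and 0 saturated. Between 26 and 30 of the 38 member probes were well above background on each array. The dimmest was the second array of WT pool 1, which correlated with the first at r = 0.954 across probes, against 0.989 for the pair of CKO pool 1.

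A probe counted as measured when all arrays of WT, all arrays of CKO or all 8 read it well above background. By this rule 26 member probes of 23 genes were measured, 5 alpha, 17 beta and 4 gamma. The Pcdha8 probe from base 1875 and the Pcdhb22 probe passed through the CKO arrays alone, as 3 of 4 WT arrays read each of them, and 0 members passed through the WT arrays alone.

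In CKO hippocampus the measured beta probes had lower values than in WT. Differences of the measured alpha probes lay on both sides of 0, and those of the 4 measured gamma probes lay above it. No single member passed the adjusted threshold. All 17 measured beta probes were lower, with a median difference of -0.64, which is 64.2% of the WT level, and a range from -0.88 to -0.47 (WT over CKO 1.84-fold to 1.39-fold). Of 5 measured alpha probes 4 were lower, with a median of -0.19 and a range from -1.10 to 0.50. Of 4 measured gamma probes 0 were lower, with a median of 0.23 and a range from 0.05 to 0.57. Pools of the genotypes overlapped at all 4 gamma probes. The differences of Pcdhgb1 (0.07, SE 0.25) and Pcdhga9 from base 4577 (0.05, SE 0.12) were smaller than their SE. Those of Pcdhgc5 and Pcdhga9 from base 2924 were larger than theirs. Over all 23601 probes tested, 47.9% had a difference below 0 and the median was 0.01, with the 5th and 95th percentiles at -0.33 and 0.44. A difference as low as that of the beta probe nearest 0, or lower, was found in 2.31% of all probes. The difference between the clusters was not tested. In whole tissue, fewer cells of a type and less RNA per cell cannot be told apart.

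**Figure D1:**
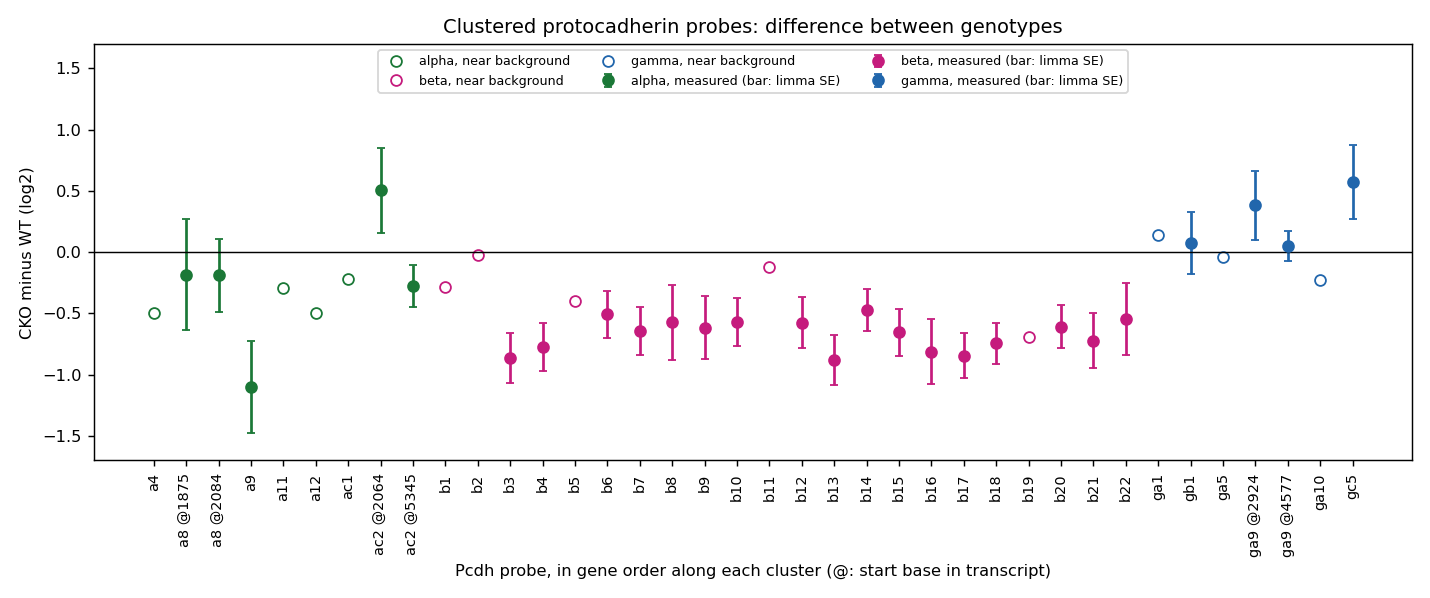
Difference CKO minus WT (log2) of all 38 member probes, in gene order along the alpha, beta and gamma clusters. Filled points are the 26 measured probes with the limma SE as bar (n = 3 pools per genotype), and open points are the 12 probes near background; the 17 filled beta points lie between -0.88 and -0.47, while alpha points lie on both sides of 0.

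No member passed the threshold of adjusted p 0.05 in limma, where 0 of 26 were called lower (0% of all probes tested) and 0 higher (0.0339%). At an unadjusted p under 0.05, 16 of 26 were lower (2.31% of all probes) and 0 were higher (3% of all probes). These 16 were 15 beta probes and Pcdha9. With the pool number as a block, 0 members passed the adjusted threshold in either direction (0.106% of all probes lower and 0.271% higher). In that fit the unadjusted p was under 0.05 for 18 of 26 lower members, all 17 beta probes among them (3.42% of all probes). It was so for 1 higher member, Pcdhgc5. The share of all probes higher in that fit was not counted (3% without the block), so this cannot be read as particular to Pcdhgc5. The beta adjusted p ran from 0.313 to 0.993 without the block and from 0.132 to 0.598 with it. An added array decided some calls: without the second array of WT pool 1, Pcdhb17 (adjusted p = 0.0378 in limma) and Pcdhb3 (adjusted p = 0.0439) passed, and when each pool was read by its first array only Pcdhb17 did (adjusted p = 0.0458). Calls also rose over the whole array. Of 23599 probes, 31 were called lower without that array and 50 with first arrays alone, against 0 in the main fit.

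Pools of the genotypes lay apart at most beta probes. The CKO pools all lay below the WT range for 14 of 17 beta probes, 0 of 5 alpha probes and 0 of 4 gamma probes, against 5.22% of all probes tested. The beta probes whose pools overlapped were Pcdhb8, Pcdhb9 and Pcdhb22. Within pairs of the same pool number, 16 of 17 beta probes were lower in CKO in all 3 pairs, against 12.8% of all probes. The exception was Pcdhb22, which was higher by 0.07 in pair 1 and lower by -0.70 and -1.01 in pairs 2 and 3. The median difference of the beta probes was -0.61 in pair 1, -0.70 in pair 2 and -0.69 in pair 3. Within slide 1 alone it was -0.68 and within slide 2 alone -0.58, and all 17 beta probes were lower within each slide. Both slides held arrays of pool 1, so they are not separate replicates. On slide 1 limma's unadjusted p was under 0.05 for 15 of 17 beta probes, all lower (3.58% of all probes). On slide 2 it was so for 1 of 17 (0.373% of all probes). The alpha median was -0.44 within slide 1 and -0.04 within slide 2, and the gamma median 0.23 and 0.17.

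**Figure D2:**
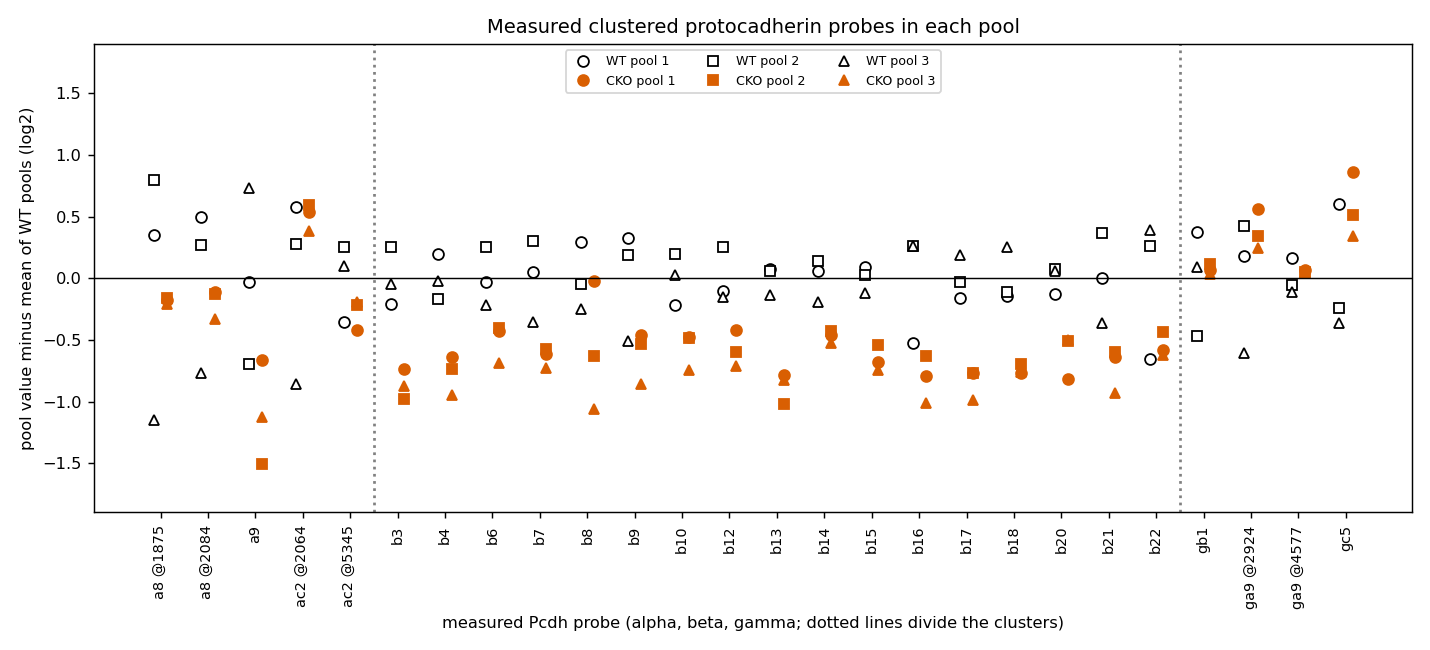
Value of each of the 26 measured probes in each pool, minus the mean of the 3 WT pools (log2); open symbols are WT pools and filled symbols CKO pools, with circle, square and triangle for pools 1, 2 and 3. The filled symbols lie below all open ones at 14 of 17 beta probes and at 0 of 9 alpha and gamma probes.

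The beta probes of largest difference lay at places 3, 13, 16 and 17 of the 22 genes in the cluster. Each encodes a single-exon cell-surface isoform. Pcdhb13 read -3.61, -3.63 and -3.83 in WT pools and -4.47, -4.71 and -4.52 in CKO pools. Every CKO pool was more than the whole WT range below the lowest WT pool. The difference was -0.88 (SE 0.20), with the WT level 1.84-fold the CKO level and an adjusted p of 0.343 in limma (0.184 with the block).

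Pcdhb3, whose probe is printed in 10 spots on each array, read -2.97, -2.51 and -2.81 in WT pools and -3.50, -3.74 and -3.64 in CKO pools. The groups did not overlap, and the 2 arrays of WT pool 1 stood at -2.63 and -3.32. Spots of this probe agreed within an array with an SD of 0.05 to 0.09, except on the CKO pool 2 array, where the SD was 0.35. The difference was -0.86 (SE 0.20), a WT level 1.82-fold the CKO level, with an adjusted p of 0.354 in limma (0.173 with the block).

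Pcdhb17 had the smallest p of all members. Its levels were -2.21, -2.08 and -1.86 in WT pools and -2.82, -2.82 and -3.04 in CKO pools. The lowest WT pool was pool 1, whose arrays read -1.91 and -2.51, and the groups did not overlap. The difference was -0.84 (SE 0.18), a WT level 1.80-fold the CKO level, with an adjusted p of 0.313 in limma (0.132 with the block). Pcdhb16 read -3.40, -2.62 and -2.61 in WT pools and -3.67, -3.51 and -3.89 in CKO pools. WT pool 1 stood apart from the other WT pools, at -2.94 on its first array and -3.86 on its second, and came close to the CKO range. The difference was -0.81 (SE 0.26), with an adjusted p of 0.725 in limma.

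The smallest beta differences were those of Pcdhb14 and Pcdhb6. Pcdhb14 read -1.82, -1.74 and -2.08 in WT pools and -2.34, -2.31 and -2.40 in CKO pools. The CKO pools lay together just below the lowest WT pool, with a difference of -0.47 (SE 0.17) and an adjusted p of 0.833 in limma. Pcdhb6 read -1.76, -1.48 and -1.94 in WT pools and -2.15, -2.13 and -2.42 in CKO pools. These groups did not overlap either, with a difference of -0.51 (SE 0.19) and an adjusted p of 0.845 in limma.

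The other measured beta genes lay between these sizes. At the 5' side of the cluster, Pcdhb4 read -2.79 to -2.42 in WT pools and -3.56 to -3.25 in CKO pools, a difference of -0.77. Pcdhb7 read -1.34 to -0.68 in WT and -1.71 to -1.55 in CKO pools, a difference of -0.64. Pcdhb10 read -2.46 to -2.04 in WT and -2.98 to -2.72 in CKO pools, a difference of -0.57. The groups stayed apart at these 3 genes and overlapped at Pcdhb8 and Pcdhb9. Pcdhb8 read -4.54 to -4.00 in WT and -5.35 to -4.32 in CKO pools, where CKO pool 1 lay inside the WT range. Pcdhb9 read -2.95 to -2.12 in WT and -3.30 to -2.91 in CKO pools, where WT pool 3 lay inside the CKO range.

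Further along, Pcdhb12 read -3.28 to -2.87 in WT and -3.83 to -3.55 in CKO pools, a difference of -0.58. Pcdhb15 read -3.41 to -3.21 in WT and -4.04 to -3.84 in CKO pools, a difference of -0.65. Pcdhb18 read -1.18 to -0.78 in WT and -1.80 to -1.73 in CKO pools, a difference of -0.74. None of these groups overlapped, and Pcdhb18 had the second smallest adjusted p of the members in limma, 0.327 (0.135 with the block). At the gamma side, Pcdhb20 read -1.75 to -1.54 in WT and -2.43 to -2.12 in CKO pools, a difference of -0.61. Pcdhb21 read -1.999 to -1.27 in WT and -2.57 to -2.24 in CKO pools, a difference of -0.72. Pcdhb22, the last of the cluster, read -3.96 to -2.91 in WT and -3.92 to -3.74 in CKO pools, a difference of -0.55, where WT pool 1 lay below every CKO pool (-3.45 on its first array and -4.46 on its second).

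Place along the beta cluster did not order the differences. The 7 measured probes of genes 1 to 11 had a median of -0.62 and the 10 of genes 12 to 22 had -0.69. Spearman's rho across the 17 probes, which share their libraries, was 0.02 between the difference and the place, and 0.10 between the difference and the WT level. It was -0.61 between the difference and the base of the transcript where the probe starts, so that the fall tended to be larger at probes that start at a later base. The distance of a probe from the 3' end of its transcript was not used. These are descriptions over probes of the same pools.

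In the alpha cluster, which encodes isoforms that share a cytoplasmic end, the probes that start before base 2900 of their transcript spread widely. Pcdha9 read -2.89, -3.56 and -2.12 in WT pools and -3.52, -4.36 and -3.98 in CKO pools. Its groups overlapped by the narrow margin between WT pool 2 and CKO pool 1, and the WT pools spanned more than the CKO pools. The difference was -1.10 (SE 0.37), the lowest of all members and a WT level 2.14-fold the CKO level, with an adjusted p of 0.78 in limma (0.139 with the block). It was -0.73 without WT pool 3.

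Pcdha8 was read by 2 probes, both starting before base 2900. The brighter, from base 2084, read -0.13, -0.35 and -1.38 in WT pools and -0.73, -0.75 and -0.95 in CKO pools. WT pool 3 lay below all CKO pools and the other WT pools above them, so that the difference of -0.19 (SE 0.30) was smaller than its error. The dimmer, from base 1875, read -4.00, -3.55 and -5.50 in WT pools and -4.52, -4.51 and -4.56 in CKO pools. WT pool 3 was again the lowest pool, with a difference of -0.18 (SE 0.45), and both had an adjusted p of 0.999 in limma. The first took a difference of 0.06 without WT pool 1, and the second took 0.22 without WT pool 2 and 0.27 on slide 2 alone.

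Pcdhac2, a C-type isoform, lies at the end of the alpha cluster and was also read by 2 probes. The one from base 2064 read -2.75, -3.05 and -4.19 in WT pools and -2.79, -2.73 and -2.95 in CKO pools. Here too WT pool 3 was the low one, and the difference was 0.50 (SE 0.35, adjusted p = 0.999 in limma), which was 0.07 without WT pool 3 and 0.79 without WT pool 1. The probe from base 5345 read 1.41, 2.01 and 1.86 in WT pools and 1.35, 1.54 and 1.57 in CKO pools. All 3 pairs were lower in CKO, with a difference of -0.28 (SE 0.17, adjusted p = 0.999 in limma), and the WT and CKO ranges overlapped through WT pool 1. Without WT pool 1 the difference was -0.45 and without WT pool 2 it was -0.15. Alpha and gamma transcripts end in exons that all isoforms of a cluster share, so a probe far towards the 3' end can read the sum of a cluster. Which alpha and gamma probes lie in the shared exons was not checked here.

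The gamma cluster encodes isoforms of the A, B and C types. Pcdhgb1 read -3.61, -4.46 and -3.90 in WT pools and -3.92, -3.87 and -3.95 in CKO pools. The CKO pools lay together inside the WT range, with a difference of 0.07 (SE 0.25) that took the other sign under 5 of 19 alternatives. Pcdhgc5, the C-type isoform at the end of the cluster, read -3.92, -4.75 and -4.88 in WT pools and -3.65, -4.01 and -4.18 in CKO pools. It was higher in CKO in all 3 pairs, by 0.26, 0.75 and 0.70, while the groups overlapped through WT pool 1. The difference was 0.57 (SE 0.30), the highest of all members and a CKO level 1.49-fold the WT level, with an adjusted p of 0.989 in limma (0.517 with the block). It was 0.87 without WT pool 1.

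Pcdhga9, of the A type, was read by 2 probes that start past base 2900 of its transcript. The one from base 2924 read -3.09, -2.85 and -3.87 in WT pools and -2.71, -2.93 and -3.02 in CKO pools. WT pool 3 was the low one, with a difference of 0.38 (SE 0.28, adjusted p = 0.999 in limma), which was 0.08 without WT pool 3 and 0.59 without WT pool 2. The one from base 4577 read 4.80, 4.58 and 4.52 in WT pools and 4.70, 4.68 and 4.67 in CKO pools. The CKO pools lay inside the WT range, and the difference of 0.05 (SE 0.12, adjusted p = 0.999 in limma) took the other sign under 3 of 19 alternatives. The 3 alpha and gamma probes that start past base 2900 of their transcript had a median difference of 0.05, the 4 alpha probes that start before it -0.19 and the 2 such gamma probes 0.32.

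**Figure D3:**
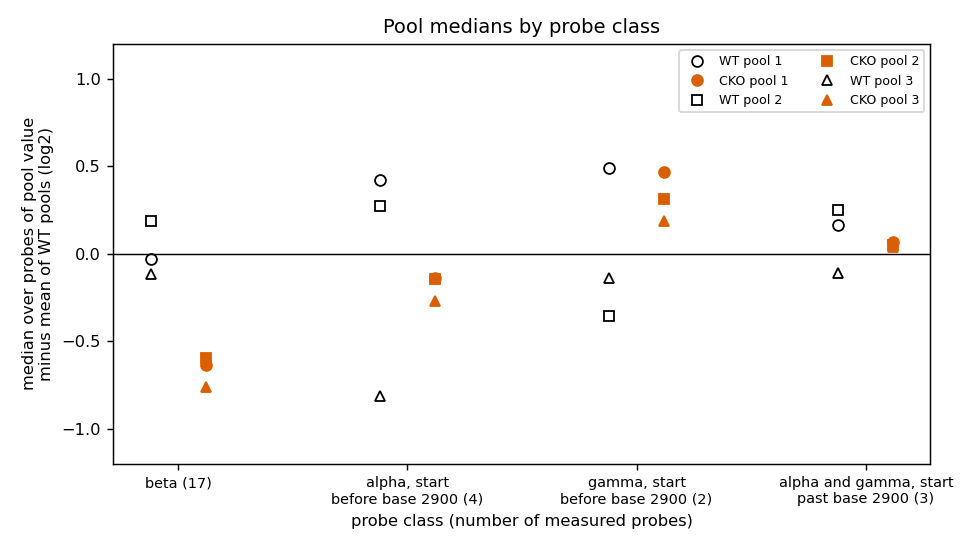
Median over the measured probes of a class of each pool's value minus the mean of the WT pools (log2), for 17 beta probes, 4 alpha and 2 gamma probes that start before base 2900 of the transcript and 3 alpha or gamma probes that start past it. The beta medians are -0.64, -0.60 and -0.76 in CKO pools 1 to 3 and -0.03, 0.18 and -0.12 in WT pools, and the WT pools of the alpha class spread from -0.81 to 0.42.

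The WT pools varied more than the CKO pools. Over all probes tested the median SD was 0.28 in WT and 0.13 in CKO, and the WT SD was the wider at 81.7% of probes. Without the second array of WT pool 1 the WT median was 0.16. For the 17 beta probes the medians were 0.22 in WT and 0.15 in CKO. For the 9 alpha and gamma probes they were 0.54 in WT and 0.12 in CKO, with WT the wider at 9 of 9, and 0.54 in WT without that array as well. WT pool 3, the pool of males and of the youngest mice, was the lowest WT pool at 15 of 26 measured probes. CKO pool 3, of the same makeup, was the lowest CKO pool at 20 of 26. These counts were not made over all probes tested, so they cannot be read as particular to the members. The part of sex, age or slide in this spread was not tested.

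The 12 other member probes were near background. Those of Pcdhac1, Pcdhb2, Pcdhb11, Pcdhb19, Pcdhga1, Pcdhga5 and Pcdhga10 were well above background on 0 of 8 arrays. Pcdha4 and Pcdhb5 were so on 5 arrays, Pcdha11 and Pcdha12 on 6, and Pcdhb1, the isoform at the start of the beta cluster, on 1. Their differences, of values near background, ran from -0.69 at Pcdhb19 to 0.14 at Pcdhga1, with 11 of 12 below 0 and a median of -0.25. Of all 15763 probes that were not measured, 76.2% had a difference below 0 and the median was -0.16, so most dim probes of the array shared that sign. Pools of both genotypes overlapped at all 12. No fold is given for them, since neither genotype was measured.

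Genes around the clusters were read from their order in RefSeq. Of 81 genes within 1 Mb of the clusters or between them, 42 were on the array and 36 were measured, with 19 lower, 17 higher and a median difference of -0.01. None was called without the block, although limma's unadjusted p was under 0.05 for 4 higher genes (3% of all probes) and 0 lower genes (2.31%), and 2 were called higher with it (0.271% of all probes). Fchsd1, which encodes an F-BAR and SH3 domain protein, read -0.26, -0.95 and -0.77 in WT pools and 0.55, 0.53 and 0.65 in CKO pools. Its groups stood far apart, by 1.24 (SE 0.19), with an adjusted p of 0.158 in limma and 0.018 with the block. Cd14, a co-receptor for bacterial lipopolysaccharide on myeloid cells, read -0.51, -1.33 and -1.03 in WT pools and 0.50, -0.02 and -0.13 in CKO pools. Its groups did not overlap, with a difference of 1.07 (SE 0.25) and an adjusted p of 0.335 in limma and 0.0234 with the block. Rell2 was higher by 0.44 (SE 0.14) and Diaph1, a formin next to the gamma cluster, by 0.46 (SE 0.20), with adjusted p of 0.684 and 0.94 in limma.

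Genes on either side of the clusters had medians near 0. The 22 measured genes before the alpha cluster had a median of -0.01 and the 13 after the gamma cluster -0.02. Taf7, a subunit of the general transcription factor TFIID whose gene lies between the beta and gamma clusters, read -3.00, -2.66 and -2.51 in WT pools and -2.55, -2.51 and -2.43 in CKO pools. Its groups overlapped, with a difference of 0.23 (SE 0.19). A second Taf7 probe was not measured.

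**Figure D4:**
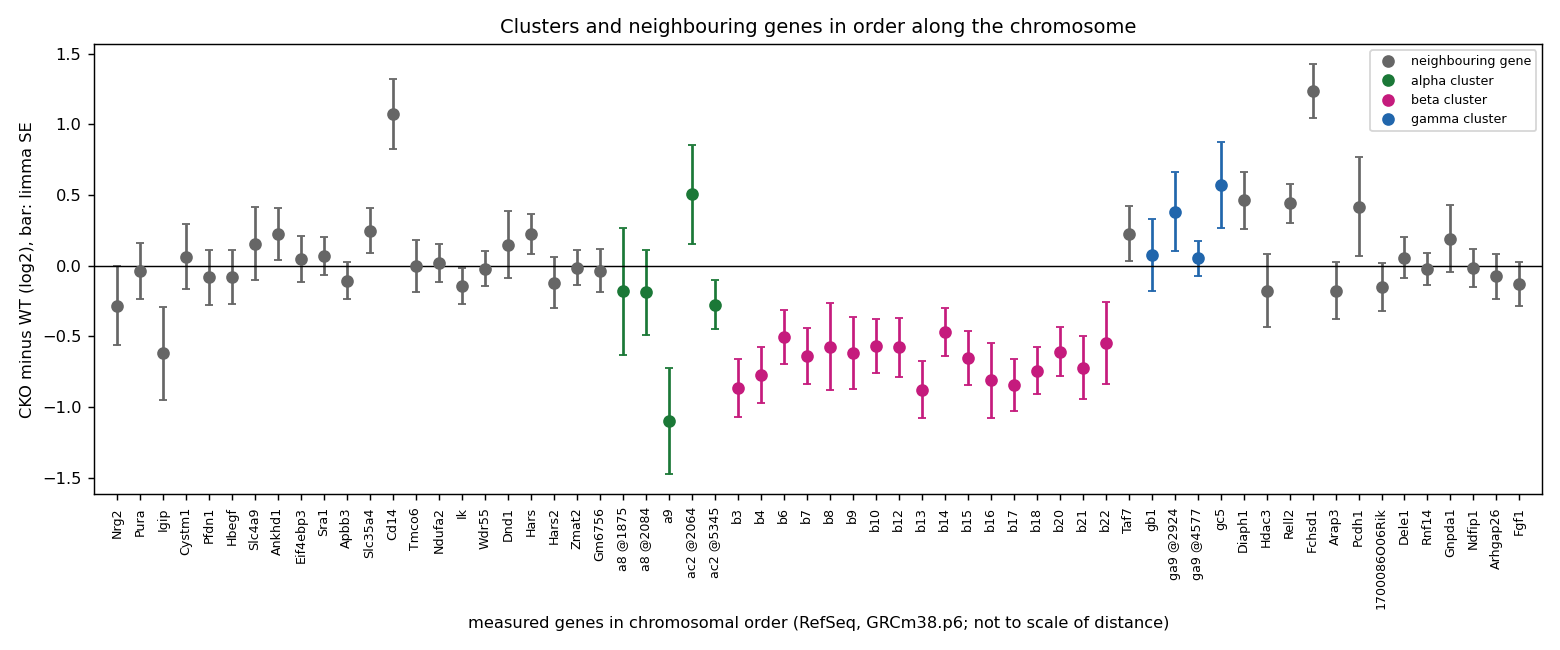
Difference CKO minus WT (log2, bar: limma SE) of the 26 measured member probes and the 36 measured neighbouring genes in their order along the chromosome; spacing is not to scale. The 17 beta probes lie from -0.88 to -0.47, Taf7 on their gamma side lies at 0.23, and Cd14 (1.07) and Fchsd1 (1.24) are the highest neighbours.

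Among genes known to act on the clusters or with their proteins, Ctcf alone passed the threshold, in the fit with the block. Of 20 regulators, which include Ctcf, cohesin subunits and loaders, DNA methyltransferases and Rest, 20 were measured, with 10 lower and 10 higher and a median of -0.01. Ctcf alone had an unadjusted p under 0.05 in limma. Those next by p were Pds5a at 0.34 (SE 0.21), Rcor1 at 0.35 (SE 0.22) and Rest at 0.49 (SE 0.32), all with an adjusted p of 0.999. Of 16 signalling partners, such as the kinases that the shared cytoplasmic ends bind and the WAVE complex, 15 were measured, with 10 lower, 5 higher and a median of -0.09. None had an unadjusted p under 0.05 in limma. Marcks, an actin-binding substrate of protein kinase C, was lower by -0.22 (SE 0.12), Wasf1, a WAVE subunit, by -0.19 (SE 0.12), Cyfip1, of the same complex, by -0.18 (SE 0.13), and Adam10, a protease that sheds cadherins, by -0.18 (SE 0.19).

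Some markers of neuron types were lower beside the beta genes. Of 5 dentate granule markers 3 were measured and all were lower, with a median of -0.75. Their mean stood at -0.79, -0.80 and -0.63 in CKO pools and between -0.16 and 0.12 in WT pools, relative to the WT mean. C1ql2 was lower by -1.10, Dsp by -0.75 and Calb1 by -0.36, while Prox1 and Tdo2 were not measured. All 4 CA1 pyramidal markers were lower, with a median of -0.25 and CKO pool means of -0.36, -0.49 and -0.27 against -0.11 to 0.14 in WT. Wfs1 (-0.91) passed with the block at an adjusted p of 0.018 in limma. Mpped1 was lower by -0.39 (SE 0.14). Pools overlapped at Pou3f1 (-0.10, SE 0.17) and Fibcd1 (-0.09, SE 0.16), whose differences were smaller than their SE. Of 6 markers of all neurons 5 were lower, with a median of -0.13 and pool means of -0.10, -0.19 and -0.24 in CKO against -0.04 to 0.05 in WT.

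In the other marker lists the median was positive, except for a small negative median of the interneuron list. All 7 excitatory forebrain markers were measured, 3 lower and 4 higher, with a median of 0.03, and all 7 interneuron markers, 5 lower and 2 higher, with a median of -0.01. All 6 choroid plexus markers were higher, with a median of 0.87, in pools where WT pool 1 stood at -1.29 the other WT pools at 0.47 and 0.82 and the CKO pools at 0.99, 1.04 and 0.39. Medians were 0.24 for CA3 and CA2 markers, 0.04 for astrocytes, 0.22 for oligodendrocytes, 0.06 for microglia and 0.05 for endothelium. No marker was called in limma without the block. At an unadjusted p under 0.05 in limma, 3 dentate, 2 CA1 and 1 general neuronal marker were lower (2.31% of all probes). By the same measure 1 excitatory, 1 astrocyte and 1 oligodendrocyte marker were higher (3% of all probes). The part of these markers in the protocadherin values was not tested.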

How the data were processed

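Labelled hippocampal RNA was hybridised in the Cy5 channel alone. Per the submitters' processing notes the authors extracted spot intensity with Agilent Feature Extraction 11.5 (the file headers give 11.5.1.1). The processed signal had its background subtracted within each array, per the file headers. Deposited flags marked spots as well above background, saturated or outliers. The deposited value table, used as an alternative, ranks spots within an array as the background-subtracted intensity does (Spearman's rho across spots 1 in each of 8 arrays); its array medians ran from 651.7 to 944.0, on a linear scale whose step between arrays stays unknown.

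Here log2 of this intensity was taken relative to the 75th percentile of non-control spots, spots of a probe and both arrays of pool 1 were averaged, and 3 pools per genotype were compared with limma 3.58.1 (eBayes with trend, R 4.3.3), two-sided, adjusted by Benjamini-Hochberg over 23601 probes. A probe was well above background on an array where at least a share of 0.5 of its spots were, and 47 probes were left out for outlier flags (0 members). An exact test of 3 against 3 cannot give a p under 0.1. The number of arrays limits the precision. Same-numbered pools have the same sex and age makeup in the labels, and their arrays share slides. Their deviations correlated across probes in pools 1 and 2 (r = 0.54 and 0.31). In pool 3 (r = 0.15) they did so little more than in other pairs (0.13 at most). A fit with the pool number as block therefore stands beside the results.

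The members and lists were chosen with earlier results of these data known. Values by pool are given for the 4 members of largest and the 2 of smallest difference in each cluster, C-type members, Ctcf, and up to 4 genes of each list by p. The values of Pcdhb18 and of the other beta members, the 2900-base division and the tests of order were added after values were seen. Gene names and order are from RefSeq (GRCm38.p6); the files name mm9 and give no probe positions, so neighbours were taken by RefSeq order and no coordinates or sequences are given. limma was tested on simulated data with 3 pools per genotype. Of 50 probes changed by a log2 of -0.6 it recovered 8%, and of 50 changed by 0.6 also 8%. At -2 and 2 it recovered 82% and 92%, with 4 false calls. The simulation drew each probe independently, with a common SD for both genotypes. In the data the WT pools varied more than the CKO pools, so the recovery to be had at the beta probes cannot be read from it.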

Additional observations from a re-analysis of the deposited data

How the results depend on the processing

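Of 19 alternatives, all measured beta probes (16 or 17) were lower in 19, with medians from -0.72 to -0.56; the medians of all members ran from -0.66 to -0.42, of alpha members from -0.57 to -0.01 and of gamma members from 0.07 to 0.37, where all gamma probes were higher in 12 of 19. The count of members called lower was 0 in 17 alternatives, 1 with first arrays alone and 2 without the second array of WT pool 1, with 0 in each of the 6 fits that leave out a pool; 0 were called higher in all 19.

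Ctcf passed in limma with the replicate block on pool number (-0.87), with first arrays alone (-0.92), without the second array of WT pool 1 (-0.95) and without WT pool 1 (-0.95). Its values ran from -0.95 to -0.80 over the fits that leave out a pool and from -0.95 to -0.74 over all alternatives. The replicate block changed no member's call.

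Sign changes, all uncalled, were these. Pcdhga9 from base 4577 took -0.0029 with the array median, -0.024 on slide 2 alone and -0.0031 without WT pool 3, with -0.0031 to 0.13 over the fits that leave out a pool. Pcdhgb1 took -0.0011 with normexp (offset 50), -0.0047 with the authors' value table, -0.021 with slide as a random block, -0.30 on slide 2 and -0.16 without WT pool 2 (-0.16 to 0.26 over the fits that leave out a pool). Pcdha8 took 0.27 on slide 2 and 0.22 without WT pool 2 at base 1875 (-0.76 to 0.22 over those fits), and 0.057 without WT pool 1 at base 2084 (-0.57 to 0.057). The cause of these changes was not tested.

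Over all probes limma called 0 lower and 8 higher. The block gave 25 and 64, first arrays alone 50 and 65, leaving out the second WT pool 1 array 31 and 56, the random slide block 6 and 15, slide 1 alone 3 and 6, slide 2 alone 0 and 0, the value table of the authors gave 0 and 4, 1 probe a gene 1 and 7, and leaving out WT pool 1 gave 6 and 15. Leaving out other pools gave 0 lower and 1 to 6 higher. Leaving out 1 pool leaves 2 in that genotype. The random slide block treated both arrays of a pool as separate samples, and slides 1 and 2 alone held 2 pools per genotype. Dim probes limit the alpha and gamma clusters, where 4 of 9 and 3 of 7 probes were near background.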
